A study of Caenorhabditis elegans with 10 samples.

Results

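The thick filament genes of Caenorhabditis elegans muscle were followed in whole young adult worms of the mitochondrial mutant gas-1(fc21) and of the wild type. They are the 4 muscle myosin heavy chains unc-54, myo-3, myo-1 and myo-2, the paramyosin gene unc-15 and the myosin light chain genes mlc-1, mlc-2 and mlc-3. A probe set, the group of array probes read as 1 value, was taken when the platform annotation named only 1 gene for it and that gene was one of these 8. This gave 13 probe sets of the 22548 tested, and all 8 genes of the 17118 named ones were measured. The genes unc-54, myo-3, myo-2 and mlc-1 had a single probe set, myo-1, mlc-2 and mlc-3 had 2 each, and unc-15 had 3.

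The mutant group carried gas-1(fc21), a missense allele of a gene for a subunit of electron transport chain complex I, and the control group was the N2 (Bristol) wild type. Each group had 5 biological replicates on 1 Affymetrix whole-genome array each, and no other allele or agent was given for either group. Both were young adults grown on OP50 bacteria, synchronised by bleaching and collected with a COPAS worm sorter, 1000 living worms to a replicate. The labels do not say whether the replicates came from separate cultures, so p-values measure only the spread between these samples.

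Muscle contracts when myosin heads of the thick filaments pull on actin thin filaments. In the worm, each myosin molecule has a pair of heavy chains, with an essential and a regulatory light chain bound to each, and the molecules assemble around a core of paramyosin. The body wall muscles, which move the animal, use the heavy chains MHC A (myo-3) and MHC B (unc-54), and the muscles of the pharynx, the feeding pump, use MHC C (myo-2) and MHC D (myo-1). Paramyosin and the light chains mlc-1, mlc-2 and mlc-3 are made in both kinds of muscle. In RNA from whole worms, fewer muscle cells and less RNA per muscle cell cannot be told apart.

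Values are log2 intensities as deposited, with array medians between 6.22 and 6.61. Limma's estimated array weights were lowest for wild-type replicates 1 and 5 (0.229 and 0.349) and mutant replicates 4 and 5 (0.475 and 0.593), against 0.699 for mutant replicate 1 and 1.47 to 3.53 for the other 5 arrays. Earlier results on these data had also set those 4 arrays apart, and results are given with and without them. Since the 4 were picked with the values known, calls made without them are a description of the remaining 6 arrays and not an independent test. Every member value was at least 5.91, above the lower quartile of its array (at most 5.37).

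Over all 10 arrays, 1 of the 8 thick filament genes passed the test between the genotypes. That is close to the 11.8% of all probe sets that passed in either direction. On the brightest probe set of each gene, 1 of the 8 genes rose in the mutant (mlc-3) and 0 fell, where 7.54% of all probe sets rose and 4.28% fell by the same rule (limma, adjusted p under 0.05). Brightness was ranked by the mean over all 10 arrays, mutant ones included. The mlc-3 probe set so chosen was the brighter in the mutant (mean 11.98 against 11.79) but the dimmer in the wild type (11.48 against 11.55). The mlc-3 call therefore depends on this choice and does not stand for the gene as a whole. Of the 13 probe sets 2, those of myo-2 and the brighter one of mlc-3, had an unadjusted limma p under 0.05. The share of all probe sets under that unadjusted limit is not given here, so this count is not read as a result. Exact permutation p-values of single probe sets, printed below for myo-2 and the brighter mlc-2 and mlc-3 ones, are unadjusted over the 13. On the remaining probe sets they ran from 0.0952, for the dimmer myo-1 one, upward. The median difference over the 8 genes, mutant minus wild type, was 0.11 on the log2 scale, against 0.00 over all probe sets, with 6 genes positive and 2 negative. The 2 negative ones were the pharynx heavy chains. The groups did not overlap on 1 of the 13 probe sets, where 12.9% of all probe sets showed no overlap.

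**Figure D1:**
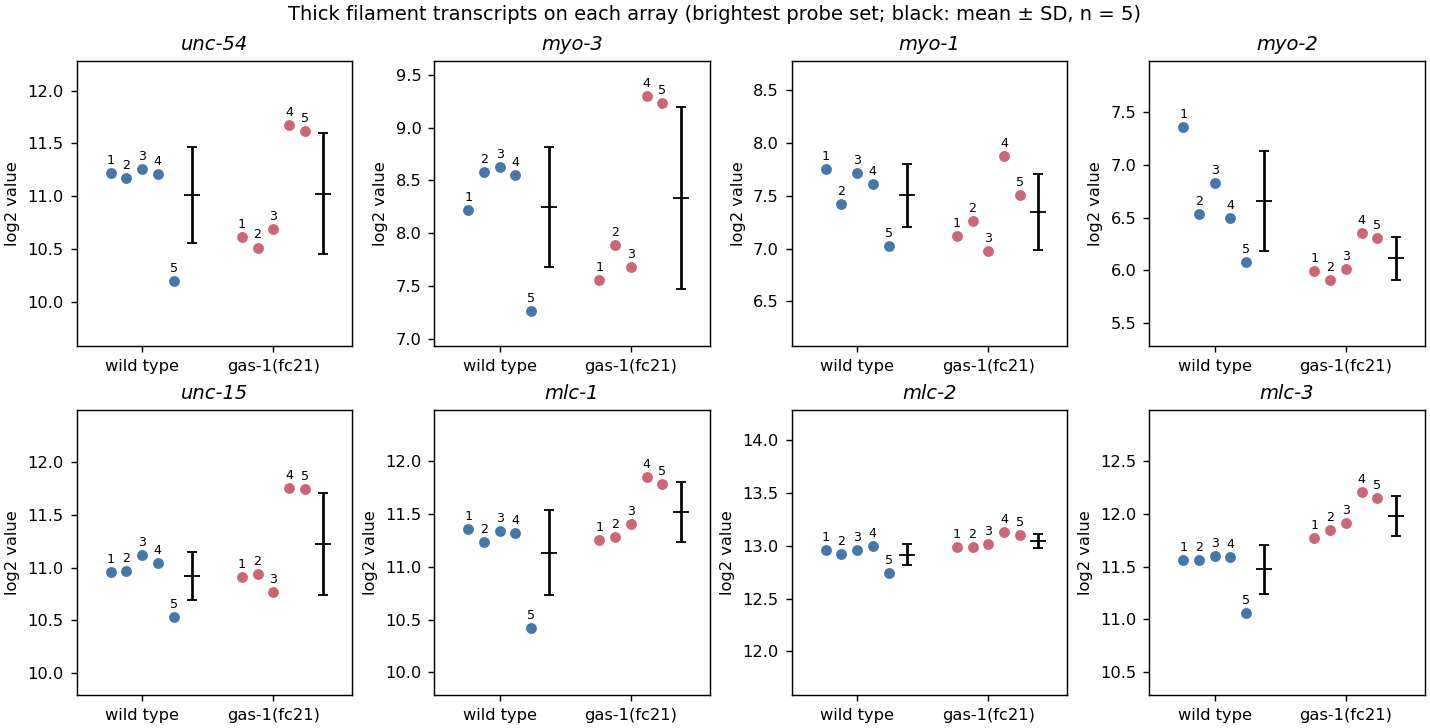
Log2 value of the brightest probe set of each gene on each of the 10 arrays (points, numbered by replicate), with the mean ± SD of the 5 arrays of a group in black. Every panel spans the same range of log2 units. Wild-type replicate 5 is the lowest wild-type array and mutant replicates 4 and 5 are the highest mutant arrays in every panel.

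The body wall heavy chains varied within each genotype far more than they differed between genotypes. Transcript of unc-54, the main heavy chain of body wall muscle, was at 10.61, 10.51, 10.69, 11.67 and 11.62 in mutant replicates 1 to 5. In wild-type replicates 1 to 5 it was at 11.22, 11.17, 11.25, 11.21 and 10.19. Mutant replicates 1 to 3 lay below wild-type replicates 1 to 4, mutant replicates 4 and 5 lay above all wild-type arrays, and wild-type replicate 5 was the lowest of the 10. Mean unc-54 was 11.02 ± 0.57 for mutant and 11.01 ± 0.46 for wild-type arrays (SD, n = 5), which is 0.01 higher in the mutant (SE 0.29, 95% interval −0.64 to 0.66, limma adjusted p = 0.992).

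MHC A, the product of myo-3, forms the middle of the body wall thick filament and is needed for its assembly. Its transcript was at 7.55, 7.89, 7.68, 9.30 and 9.24 in mutant replicates 1 to 5. The wild-type values were 8.22, 8.58, 8.62, 8.56 and 7.27. The arrays fell in the same arrangement as for unc-54, with mutant replicates 4 and 5 highest of all and wild-type replicate 5 lowest of all. Mean myo-3 was 8.33 ± 0.86 for mutant and 8.25 ± 0.57 for wild-type arrays (SD, n = 5), with 0.08 between them (SE 0.41, 95% interval −0.82 to 0.99, limma adjusted p = 0.932). The spread of myo-3 within genotypes, a pooled SD of 0.73, was larger than that of 98.1% of all probe sets, and that of unc-54 (0.52) was larger than that of 94.2%.

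Without the 4 arrays that stood apart, both body wall heavy chains were lower in the mutant. There unc-54 fell by 0.61 on the log2 scale (SE 0.07, 1.52-fold lower, limma adjusted p = 0.0012), and myo-3 fell by 0.88 (SE 0.10, 1.83-fold lower, limma adjusted p = 0.000753). Leaving out mutant replicates 4 and 5 alone gave differences of −0.41 for unc-54 (adjusted p = 0.402) and −0.54 for myo-3 (adjusted p = 0.362), with wild-type replicate 5 still included.

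The pharynx heavy chains were lower on average in the mutant and did not pass the test over all arrays. Transcript of myo-2 was at 5.99, 5.91, 6.01, 6.35 and 6.30 in mutant replicates 1 to 5. In the wild type it was at 7.36, 6.54, 6.83, 6.49 and 6.08. Only wild-type replicate 5 reached into the mutant range, and wild-type replicate 1 was the highest array. Mean myo-2 was 6.11 ± 0.20 for mutant and 6.66 ± 0.47 for wild-type arrays (SD, n = 5), and mutant minus wild type came to −0.55 (SE 0.21, 95% interval −1.01 to −0.08, limma adjusted p = 0.126, exact permutation p = 0.0397). Without wild-type replicate 5 myo-2 fell by 0.69 (adjusted p = 0.0316), and without wild-type replicate 1 its difference was −0.37 (adjusted p = 0.159). It passed as lower under centring on array medians, quantile normalization and array weights as well (adjusted p = 0.0265, 0.0343 and 0.0072). Under these settings 4.83%, 5.83% and 11.2% of all probe sets fell.

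The other pharynx heavy chain, myo-1, was read on 2 probe sets. The brighter was at 7.12, 7.26, 6.98, 7.88 and 7.50 in mutant replicates 1 to 5 and at 7.76, 7.42, 7.72, 7.61 and 7.03 in wild-type replicates 1 to 5. The groups overlapped, with mutant replicate 4 the highest of the 10 arrays, and the difference was −0.16 (SE 0.19, 95% interval −0.58 to 0.26, limma adjusted p = 0.673). On its dimmer probe set myo-1 was at 6.01, 5.97, 6.21, 6.89 and 6.42 in the mutant and at 6.97, 6.72, 6.73, 6.55 and 6.41 in the wild type. Here mutant replicates 1 to 3 lay below every wild-type array, and the difference was −0.37 (SE 0.18, 95% interval −0.77 to 0.02, limma adjusted p = 0.227). It passed as lower without mutant replicate 4 (−0.52, adjusted p = 0.0437), without mutant replicates 4 and 5 (−0.61, adjusted p = 0.0274) and under quantile normalization (adjusted p = 0.0464) and array weights (adjusted p = 0.0176).

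All 3 probe sets of the pharynx heavy chains had a negative difference under each of their alternative settings, 19 for myo-2 and for the dimmer myo-1 probe set and 20 for the brighter. These settings re-use the same arrays and are not separate tests. Trend and robust variances, the replicate block and dropping dim probe sets cannot change a difference at all. Without the 4 arrays that stood apart, myo-2 fell by 0.65 (SE 0.10, limma adjusted p = 0.00415) and myo-1 fell by 0.47 (SE 0.11, adjusted p = 0.0214) and 0.60 (SE 0.09, adjusted p = 0.00401) on its brighter and dimmer probe sets. On those 6 arrays 4 of the 8 genes fell, the 4 heavy chains, where 11.2% of all probe sets fell. There 1 rose, mlc-3 on its brighter probe set only, where 10.3% of all probe sets rose.

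**Figure D2:**
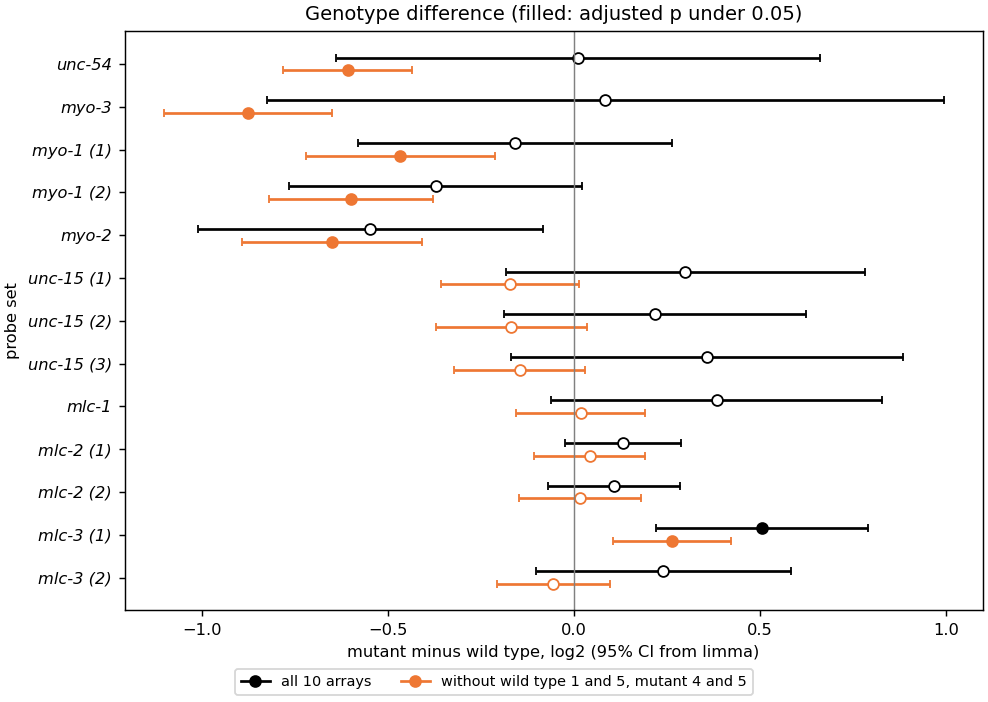
Mutant minus wild-type difference on the log2 scale with its 95% interval from limma for the 13 probe sets, over all 10 arrays (black) and without wild-type replicates 1 and 5 and mutant replicates 4 and 5 (orange). Filled points have an adjusted p under 0.05. The 5 heavy chain probe sets pass as lower in orange alone, and the brighter mlc-3 probe set passes as higher in both.

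To set body wall against pharynx genes, the log2 difference between a body wall and a pharynx heavy chain was taken within each array and compared between the genotypes, for 4 pairs. No pair passed an exact permutation test after adjustment over the 4 pairs. The pair of unc-54 and myo-2 came closest. Its within-array differences were 4.62, 4.60, 4.68, 5.32 and 5.32 in mutant replicates 1 to 5 and 3.86, 4.64, 4.42, 4.72 and 4.11 in wild-type replicates 1 to 5. Mutant replicates 1 to 3 lay within the wild-type range on this pair, and mutant replicates 4 and 5 above it. The mean difference was 0.56 higher in the mutant (SE 0.23, exact permutation p = 0.0714, adjusted p = 0.286).

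For myo-3 against myo-2 the change between genotypes was 0.63 (SE 0.39, exact permutation p = 0.167, adjusted p = 0.333). Against myo-1, it was 0.17 for unc-54 (SE 0.17, exact permutation p = 0.365, adjusted p = 0.46) and 0.24 for myo-3 (SE 0.30, exact permutation p = 0.46, adjusted p = 0.46). Without the 4 arrays that stood apart, 3 of the 4 changes turned negative and that of unc-54 against myo-2 stayed positive. They were 0.04 (SE 0.09) for unc-54 against myo-2, −0.22 (SE 0.15) for myo-3 against myo-2, −0.14 (SE 0.15) for unc-54 against myo-1 and −0.41 (SE 0.11) for myo-3 against myo-1. For this last pair, mutant replicates 1 to 3 lay at 0.435 to 0.708 and wild-type replicates 2 to 4 at 0.904 to 1.154, without overlap. Its exact permutation p was 0.1 (adjusted p = 0.4). With 3 arrays a group, 0.1 is the smallest p such a test allows. A different response of body wall and pharynx heavy chains was therefore not shown.

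**Figure D3:**
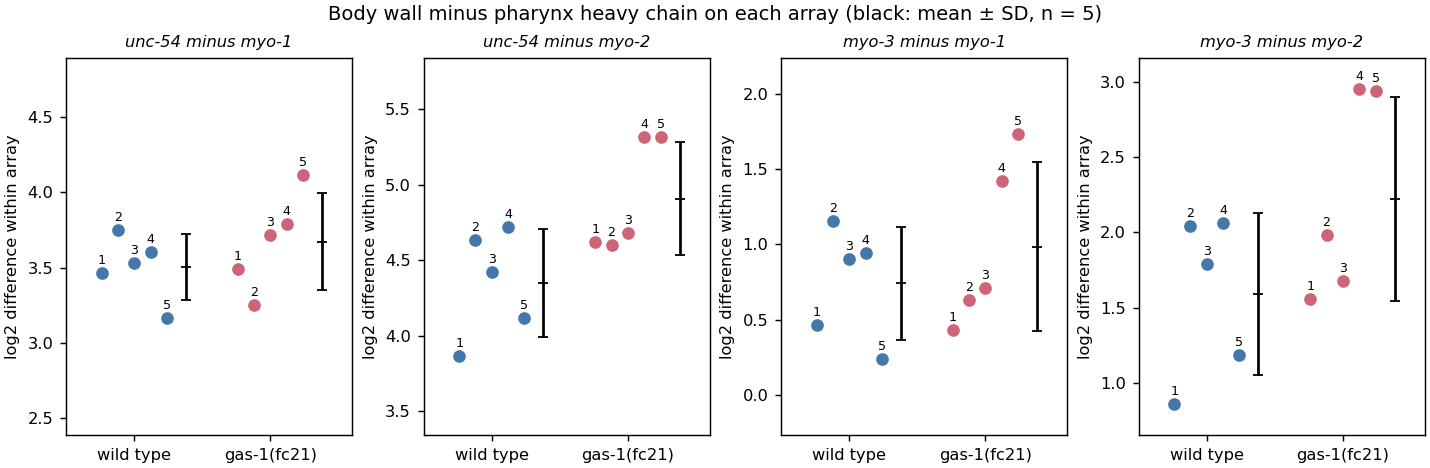
Within-array log2 difference between a body wall heavy chain (unc-54 or myo-3) and a pharynx heavy chain (myo-1 or myo-2) on each array, numbered by replicate, with the mean ± SD of 5 arrays in black. The groups overlap in all 4 panels, and mutant replicates 4 and 5 are the highest 2 arrays in each.

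Paramyosin, the rod protein of the thick filament core, did not pass on any of its 3 probe sets. The brightest unc-15 probe set was at 10.91, 10.94, 10.77, 11.76 and 11.74 in mutant replicates 1 to 5 and at 10.96, 10.97, 11.12, 11.04 and 10.53 in wild-type replicates 1 to 5. Mutant replicates 4 and 5 stood well above every other array, wild-type replicate 5 was the lowest, and the rest lay close together. The difference for unc-15 was 0.30 (SE 0.22, 95% interval −0.18 to 0.78, limma adjusted p = 0.454), with 0.22 (SE 0.18) and 0.36 (SE 0.24) on the other probe sets. Without the 4 arrays that stood apart the 3 differences were −0.17, −0.17 and −0.15 (adjusted p = 0.178, 0.222 and 0.22), so their sign was not settled.

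Of the light chain genes, mlc-3 alone had a called probe set. It codes for the essential (alkali) light chain, which steadies the lever arm of the myosin head. The brighter mlc-3 probe set was at 11.78, 11.85, 11.91, 12.21 and 12.15 in mutant replicates 1 to 5 and at 11.56, 11.56, 11.60, 11.59 and 11.06 in wild-type replicates 1 to 5. The lowest mutant array was still above the highest wild-type one. It rose by 0.50 (SE 0.13, 1.42-fold, 11.98 ± 0.19 against 11.48 ± 0.23, SD, n = 5, limma adjusted p = 0.0296, exact permutation p = 0.00794, the smallest that 5 arrays against 5 allow). The call was lost with adjusted p from 0.0501 to 0.0709 without mutant replicate 3, 4 or 5 or wild-type replicate 2, 3 or 4, and with adjusted p = 0.107 with the replicate number as a block. Without the 4 arrays that stood apart, it was kept with a smaller rise of 0.26 (adjusted p = 0.0314).

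The dimmer mlc-3 probe set did not pass. Its values were 11.68, 11.58, 11.62, 12.08 and 11.99 in mutant replicates 1 to 5, and 11.67, 11.66, 11.70, 11.69 and 11.03 in wild-type replicates 1 to 5. Mutant replicates 1 to 3 lay among or beside wild-type replicates 1 to 4 here, and the difference was 0.24 (SE 0.15, limma adjusted p = 0.387). Without the 4 arrays that stood apart it was −0.06 (SE 0.06, limma adjusted p = 0.608), so the rise kept there was seen on the brighter probe set alone. In a comparison added after these values were seen, the brighter minus the dimmer probe set was 0.19 ± 0.09 for mutant and −0.07 ± 0.06 for wild-type arrays (SD, n = 5). The mutant arrays lay between 0.10 and 0.29 and the wild-type arrays between −0.11 and 0.03 (exact permutation p = 0.00794). The 2 mlc-3 probe sets thus gave unequal differences, and the mean of both did not pass (0.37, adjusted p = 0.115). The brighter one has the suffix _s_at, which marks probes shared between transcripts, and the dimmer has not. Of the 13 member probe sets 7 carry this suffix, and every heavy chain probe set is among them. The pairs of body wall and pharynx heavy chains rest on such probe sets, and signal shared between related transcripts was not tested.

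The regulatory light chains are encoded by mlc-1 and mlc-2, near-identical genes that are next to each other in the RefSeq gene table. Transcript of mlc-1 was at 11.26, 11.29, 11.41, 11.86 and 11.79 in mutant replicates 1 to 5 and at 11.36, 11.23, 11.34, 11.33 and 10.42 in wild-type replicates 1 to 5. Apart from wild-type replicate 5, low, and mutant replicates 4 and 5, high, the arrays lay close together. The difference for mlc-1 was 0.38 (SE 0.20, 95% interval −0.06 to 0.83, limma adjusted p = 0.272), and 0.02 (SE 0.07) without the 4 arrays that stood apart.

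The brighter mlc-2 probe set was at 12.99, 12.99, 13.02, 13.13 and 13.11 in mutant replicates 1 to 5 and at 12.96, 12.92, 12.96, 12.999 and 12.74 in wild-type replicates 1 to 5. These arrays spanned a narrow range, and the groups overlapped only at wild-type replicate 4. The difference for mlc-2 was 0.13 (SE 0.07, 95% interval −0.03 to 0.29, limma adjusted p = 0.286, exact permutation p = 0.0238), with 0.11 (SE 0.08, adjusted p = 0.46) on the dimmer probe set. The pooled SD of the brighter probe set, 0.085, was larger than that of 8.49% of all probe sets. Both mlc-2 probe sets carry the suffix _x_at, which marks probes that may match other sequences, so a contribution from mlc-1 to these values cannot be told apart.

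Most members moved together from array to array. Mutant replicates 4 and 5 were the 2 highest mutant arrays on all 13 probe sets and the 2 highest of all 10 arrays on 10 of them, the exceptions being the pharynx heavy chains. Wild-type replicate 5 was the lowest wild-type array on all 13 and the lowest of all arrays on 10, again with the pharynx heavy chains as the exceptions. Within genotypes, the SD over arrays was 0.52 for unc-54 and 0.42 for the dimmest unc-15 probe set. The SD of the difference between these was 0.13, the smallest between unc-54 and any other member probe set. It was 0.20 with the brightest unc-15 probe set and 0.23 with the middle one. The like SD of the difference was 0.27 for unc-54 and myo-3, 0.37 for unc-54 and myo-2 and 0.44 for unc-54 and the brighter mlc-2 probe set, which itself hardly varied.

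**Figure D4:**
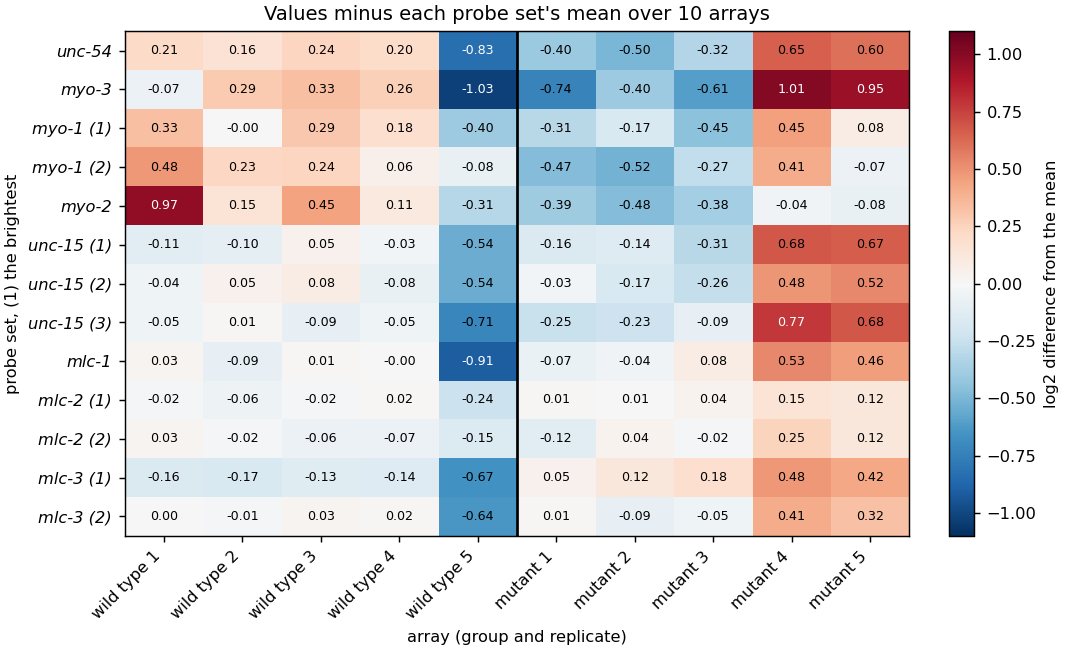
Value of each of the 13 probe sets on each array minus its mean over the 10 arrays, in log2 units, with wild-type arrays on the left and mutant arrays on the right of the line. Wild-type replicate 5 is blue in every line and mutant replicates 4 and 5 are red in every line of unc-54, myo-3, unc-15 and mlc-1, with the widest swings in myo-3.

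Genes of other single names with the pattern nearest to unc-54 were sought by the root mean square distance between values centred on their own mean over 10 arrays, among 20753 probe sets. The nearest were emb-9 (distance 0.068), a type IV collagen chain of basement membranes, test-1 (0.077), mig-6 (0.079), the papilin gene, and F35B12.9 (0.08), where unc-54 itself had a root mean square of 0.46 about its mean. For myo-3 they were F13B6.3 (0.138), the laminin alpha chain gene epi-1 (0.156), ZC247.1 (0.182) and the collagen gene col-72 (0.194). For myo-2 they were nssp-36 (0.116), the insulin-like peptide gene ins-30 (0.127), F56A11.6 (0.127) and ZK666.2 (0.13). None of these 12 passed the test between genotypes. That largely follows from their choice, since they were picked by nearness to members that did not pass.

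Other muscle genes were taken from lists drawn up with earlier results of these data known. Their calls over all arrays are given against the 7.54% of all probe sets that rose and the 4.28% that fell. Among 11 measured partners of the thick filament, such as the giant proteins twitchin (unc-22), titin (ttn-1) and obscurin (unc-89) and the myosin chaperone unc-45, 1 rose and 0 fell, with a median difference of 0.08. The gene that rose was lim-9, which codes for a LIM domain protein (0.60, SE 0.16, 1.51-fold, limma adjusted p = 0.0409). Of 15 thin filament genes 1 rose and 0 fell, with a median of 0.10, and the tropomyosin gene lev-11 was the one that rose (0.56, SE 0.12, 1.48-fold, limma adjusted p = 0.0114). None of the 13 genes that anchor filaments at dense bodies and M-lines, of the 16 genes of calcium handling and excitation, of the 3 body wall muscle transcription factors or of the 12 non-muscle and unconventional myosin genes passed in either direction (medians 0.12, 0.05, 0.15 and 0.06). Among them, 2 calcium and excitation genes, 1 transcription factor and 1 of the other myosins had means below the lower quartile of every array.

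Without the 4 arrays that stood apart, 4 of the 11 partners fell and 0 rose. They were unc-22 (−1.14), unc-89 (−0.65), dim-1 (−0.35) and ttn-1 (−0.32), named after their values were seen. On the same arrays 6 of 15 thin filament genes fell and 1 rose, 4 of 13 attachment genes fell and 1 rose, and 1 of 12 other myosin genes fell, the non-muscle heavy chain nmy-1 (−0.56, adjusted p = 0.00139), also named after its value was seen. The background on these arrays is the 11.2% of all probe sets that fell and the 10.3% that rose.

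In the pharynx, 2 of 7 further muscle markers rose and 0 fell over all arrays, where 7.54% of all probe sets rose and 4.28% fell. Both that rose are transcription factor genes, peb-1 (0.61, SE 0.11, 1.52-fold, limma adjusted p = 0.00523) and tbx-2 (0.50, SE 0.14, adjusted p = 0.0388), the second named after its value was seen. The contractile genes of the same list had differences of −0.56 for the troponin I gene tni-4 (adjusted p = 0.163), −0.70 for the troponin C gene tnc-2 (adjusted p = 0.165) and −0.02 for the troponin T gene tnt-4 (adjusted p = 0.952), and these 3, named after their values were seen, are also in the thin filament list. Of these 7 markers, 2 rose without the 4 arrays that stood apart, peb-1 (0.58, adjusted p = 0.00608) and tbx-2 (0.48, adjusted p = 0.00465). On the same arrays 2 fell, tni-4 (−0.98) and tnc-2 (−1.30), where 10.3% of all probe sets rose and 11.2% fell. Over all arrays, against those shares of 7.54% and 4.28%, 1 of 7 markers of the pharyngeal glands fell and 0 rose. The one that fell was phat-4 (−0.87, SE 0.17, 1.82-fold lower, adjusted p = 0.00968).

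Neuron, hypodermis and intestine markers shared their highest and lowest arrays with the thick filament genes, but not all followed them on the other arrays. The mean of the 8 thick filament genes was 10.52 and 10.43 in mutant replicates 4 and 5, 9.78 to 9.83 in mutant replicates 1 to 3, 10.05 to 10.18 in wild-type replicates 1 to 4 and 9.41 in wild-type replicate 5. The mean of 9 neuron markers was 7.28 to 7.81 in the mutant and 7.02 to 7.45 in the wild type, that of 8 hypodermis markers 9.27 to 9.74 and 8.87 to 9.43, and that of 11 intestine markers 10.31 to 10.74 and 10.25 to 10.64. In all 3 lists, mutant replicates 4 and 5 were highest and wild-type replicate 5 was lowest. Mutant replicates 1 to 3 lay below wild-type replicates 1 to 4 for neuron (7.28 to 7.35 against 7.39 to 7.45) and intestine markers (10.31 to 10.45 against 10.62 to 10.64). For hypodermis markers they lay at 9.27 to 9.31, above wild-type replicates 2 to 4 (9.21 to 9.25) and below wild-type replicate 1 (9.43). The 14 oocyte and early embryo markers ran the other way, at 12.13 and 12.16 in mutant replicates 4 and 5 and 12.51 in wild-type replicate 5, within a range of 12.13 to 12.51 over all arrays.

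Sperm markers differed most. The mean of 19 of them was 6.67 to 6.77 in mutant replicates 1 to 3, 9.02 to 9.09 in mutant replicates 4 and 5, 10.01 to 10.10 in wild-type replicates 1 to 4 and 7.84 in wild-type replicate 5, and 0 rose and 3 fell over all arrays. The number that fell was 15 with centring on array medians and 6 with quantile normalization. It was 16 without wild-type replicate 5, without mutant replicates 4 and 5 or without the 4 arrays that stood apart. The last is the setting in which the 4 heavy chains fell. Of all probe sets, 4.28% fell over all arrays and 4.83%, 5.83%, 7.14%, 3.49% and 11.2% in these settings, in the order given. The msp, gsp and nspd-1 probe sets carry the suffix _x_at, so these markers may share signal and are not independent. The other lists are given over all arrays, where 7.54% of all probe sets rose and 4.28% fell. Of 9 neuron markers 1 rose (snb-1, 0.34, adjusted p = 0.0195) and 0 fell. In either direction, 0 of 8 hypodermis and 0 of 14 oocyte and early embryo markers passed. Of 11 intestine markers 1 rose (vha-6, 0.55, adjusted p = 0.0269) and 1 fell (pept-1, −0.95, adjusted p = 0.0377). The sperm marker with the largest called fall was ssp-19 (−1.92, adjusted p = 0.0426). The lowest value of these lists was 3.915, so being above 0 does not show that a marker was detected. Means below the lower quartile of every array were found for 1 neuron, 1 sperm and 1 pharyngeal muscle marker. For such dim genes a missing call says little. The part of other tissues in the thick filament values was not tested.

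**Figure D5:**
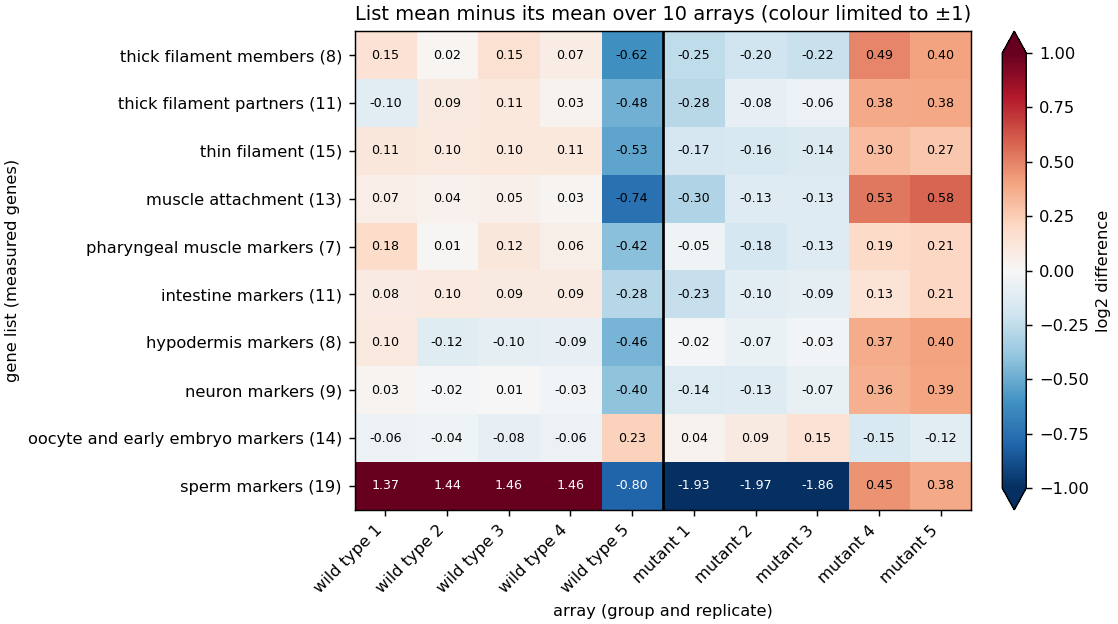
Mean log2 value of each gene list on each array minus the mean of that list over the 10 arrays, with the number of measured genes in brackets and the colour limited to differences of 1. The thick and thin filament, attachment, pharyngeal muscle, intestine, hypodermis and neuron lists are lowest in wild-type replicate 5 and highest in mutant replicates 4 and 5, the oocyte and early embryo list is highest in wild-type replicate 5, and the sperm list has the widest range.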

How the data were processed

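Whole-worm RNA of 5 mutant and 5 wild-type samples was measured on 1 array each. The deposited values are taken to be log2 intensities, from their range. How the authors scanned the arrays, corrected background, summarised probes and normalized is not stated in what was used here. Per the labels' protocols, biotinylated cRNA was made from 1 µg of total RNA. Of 22625 probe sets, 77 Affymetrix controls were left out, and no filter was applied. Genes came from the platform annotation, updated through RefSeq genes (WBcel235). In all, 20766 tested probe sets named 1 gene, 887 several and 895 none here.

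Genotypes were compared per probe set in limma 3.58.1 under R 4.3.3 (genotype only, 2-sided), with Benjamini-Hochberg adjustment over all 22548 and calls at an adjusted p under 0.05. Array medians differed by 0.386, under the limit of 0.5 set for quantile normalization. Within-array pairs and single values were compared by exact 2-sided permutation of the 10 arrays (252 assignments, SciPy 1.17.1), pairs adjusted over 4. SEs of pairs are pooled. The fit was tested on simulated data. Members, lists and the 4 arrays left out were chosen with earlier results of these data known. Named genes were all members, from each other list the called gene with the largest difference in each direction, and the 4 probe sets nearest to unc-54, myo-3 and myo-2; exceptions are marked. At least 99.7% of probe sets differed between any 2 arrays, so no array was a duplicate. The number of arrays limits the precision. Alternatives were quantile normalization, centring, dropping the 33% or 50% dimmest probe sets, trend and robust variances, array weights, the replicate block, each array in turn, 2 sets of arrays, and the mean of a gene's probe sets.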

Additional observations from a re-analysis of the deposited data

Results flagged for a closer look

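Wild-type replicate 5 was far below the other 4 wild-type arrays on 7 of the 13 thick filament probe sets, by a gap of over 0.71 of the whole range of its group. Its values were 10.191 for unc-54 (next lowest 11.174), 10.53, 10.39 and 10.092 for the 3 probe sets of unc-15 (next lowest 10.961, 10.85 and 10.715), 10.417 for mlc-1 (next lowest 11.234), and 11.062 and 11.032 for the 2 probe sets of mlc-3 (next lowest 11.562 and 11.66). No mutant array stood apart by this measure, and mutant replicates 4 and 5 lay close to each other. Chance gives such a gap in about 1 group in 20, and 26 groups of 5 arrays were looked at. The 7 cases share 1 array, so they are not independent.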

How the results depend on the processing

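Without wild-type replicates 1 and 5 and mutant replicates 4 and 5, the differences of unc-54 and myo-3 turned from 0.01 and 0.08 to −0.61 and −0.88 and passed, and 4 members were called lower in place of 0. The number called lower was 1 under quantile normalization, centring on array medians and array weights, each time myo-2, and 0 to 1 with single arrays left out. Of all probe sets, 5.83% fell with quantile normalization, 4.83% with centring and 11.2% with array weights. With array weights, 1 of the 8 members is close to that share. The number called higher went from 1 to 0 with the replicate block (mlc-3, 0.50, adjusted p = 0.107), with the mean of a gene's probe sets and without mutant replicates 4 and 5, and was 0 to 1 with single arrays left out. Replicate numbers pair nothing in the labels, and deviations of same-numbered arrays correlated at −0.17 to 0.098. With the replicate block 4.74% of all probe sets rose and 1.64% fell, against 7.54% and 4.28%. The 4 pairs then had exact adjusted p of 0.5 to 0.75, where the smallest p allowed before adjustment is 0.0625. Without the dimmest 50% of probe sets myo-2 could not be tested. No pair passed under its 16 alternatives (lowest adjusted p = 0.159), nor did mlc-1, mlc-2 or unc-15 under theirs. For the pairs, the replicate block and the setting without the 4 arrays could not give a pass. The smallest p that those tests allow is 0.0625 and 0.1.
The count of all called probe sets was 2665 over all arrays, 5504 with array weights, 4839 without the 4 arrays, 1439 with the replicate block and 1656 to 1717 without wild-type replicate 2, 3 or 4.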

Other observations

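The 2 probe sets that name a member together with another gene were left out of the counts. The one for mlc-1 and C36E6.11 had means of 10.50 ± 0.34 for mutant and 9.99 ± 0.47 for wild-type arrays (SD, n = 5, limma adjusted p = 0.209), and the one for mlc-1 and mlc-2 at 12.18 ± 0.19 and 11.99 ± 0.12 (SD, n = 5, limma adjusted p = 0.292).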
